A study of Mus musculus with 6 samples.

Results

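The Hox genes are the homeobox genes of the Hoxa, Hoxb, Hoxc and Hoxd clusters, and their transcripts were measured by bulk RNA-Seq in adult mouse hindlimb muscle. Members were taken by symbol, as every gene of the count table named Hox, a cluster letter and a number, which gave 39 of the 24421 genes listed. The tissue was gastrocnemius/plantaris (GP) muscle, the calf muscle, of males, with B6C3F1 as the labelled strain background (the methods describe floxed founders of that strain bred on to C57BL/6N and then to the Cre line), taken at an age of 5 months, when 3 months had passed since tamoxifen. By their labels, the 3 libraries called Ctrl came from Net39 fl/fl mice without Cre and the 3 called cKO from HSACreERT2;Net39 fl/fl mice, which the level of Net39 itself goes against. On either reading of the labels, both groups carried the floxed Net39 allele and received tamoxifen, and they were compared to learn what adult loss of Net39, a nuclear envelope protein of muscle, does to transcription. The Cre is driven by the human skeletal actin promoter and so acts in muscle fibers, whereas RNA came from the whole muscle with its connective tissue, vessels, nerves and blood cells.

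The libraries held 33860001 to 38201728 counts (labelled Ctrl) and 39191239 to 48839910 counts (labelled cKO). The targeted gene, listed under its older symbol Ppapdc3, went against the labels: its counts were 310, 321 and 217 in the Ctrl-labelled libraries and 5365, 4340 and 6080 in the cKO-labelled ones. In CPM, the counts scaled to a common library size after TMM normalization for composition, this was 7.20 ± 1.10 against 134 ± 19.7 (SD, n = 3), a log2 fold change of 4.22 (SE 0.17, edgeR adjusted p = 0.000161). All groups below are therefore given as labelled, and each log2 fold change is the cKO-labelled libraries over the Ctrl-labelled ones. A gene that was higher in the cKO-labelled libraries was thus higher where Net39 transcript was high. The p-values measure the spread between 3 mice a group.

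Hox proteins are transcription factors that bind DNA through a homeodomain and give cells their position along the body axis and the limb. In mammals they lie in 4 clusters, and genes at matching places in different clusters form 13 paralog groups. Genes with low numbers are used toward the head, and genes with high numbers toward the tail and the far end of the limb. Polycomb proteins keep unused Hox genes silent, Trithorax proteins keep used ones active, and Pbx, Meis and Pknox proteins bind DNA together with Hox proteins. Adult muscle and connective tissue cells keep a Hox pattern that reflects where in the body they were formed.

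In this hindlimb muscle, 30 of the 39 Hox genes passed edgeR's expression filter, which asks for enough counts in at least 3 libraries, led by Hoxc10, Hoxd8 and Hoxd9. Of the 6 Hox genes that passed the threshold between the labelled groups, 4 lay in the Hoxd cluster. Hoxd10, Hoxd9, Hoxd3 and Hoxd8 were 2.23, 2.02, 1.71 and 1.69 times higher in the cKO-labelled libraries, and Hoxd4, which lies beside Hoxd3, was at 0.96 times. In the Hoxc cluster, Hoxc10 was 1.41 times higher in the cKO-labelled libraries and Hoxc6 was 1.54 times higher in the Ctrl-labelled ones. No Hoxa or Hoxb gene passed the threshold. Toward the cKO-labelled libraries 16.7% of the Hox genes tested passed, against 12.6% of all genes tested. Toward the Ctrl-labelled ones it was 3.33%, against 11.8%.

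The sequences just before the starts of the 5 expressed Hoxd genes are shown because 4 of these neighbours passed the threshold and Hoxd4 did not. They are RefSeq windows of GRCm38.p6 on the plus strand of chromosome 2, each read from 250 bases before the RefSeq start, and bases that are exonic in another transcript were left out of the print (36 for Hoxd9 and 66 for Hoxd3). Hoxd10 is shown at chr2:74691641-74691890, Hoxd9 at chr2:74697513-74697726, Hoxd8 at chr2:74704365-74704614, Hoxd3 at chr2:74711743-74711926 and Hoxd4 at chr2:74721728-74721977. The annotation used for positions starts Hoxd4 at 74711929, beside Hoxd3 at 74711927. The Hoxd3 window thus lies before both annotated starts, and the Hoxd4 window lies inside both annotated genes. These 2 windows are therefore not separate promoters of the 2 genes in that annotation. Capitals mark matches to CCAAT or TATAAA on either strand, which read ATTGG or TTTATA where the match is on the minus strand.
Hoxd10: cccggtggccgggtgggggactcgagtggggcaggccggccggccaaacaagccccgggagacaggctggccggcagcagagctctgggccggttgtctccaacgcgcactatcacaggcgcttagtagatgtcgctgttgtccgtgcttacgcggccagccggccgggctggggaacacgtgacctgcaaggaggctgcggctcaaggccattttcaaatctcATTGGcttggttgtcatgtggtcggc
Hoxd9: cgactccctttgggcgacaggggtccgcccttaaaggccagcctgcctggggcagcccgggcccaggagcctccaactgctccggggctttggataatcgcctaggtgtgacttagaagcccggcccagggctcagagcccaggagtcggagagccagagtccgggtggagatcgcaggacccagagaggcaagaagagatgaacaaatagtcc
Hoxd8: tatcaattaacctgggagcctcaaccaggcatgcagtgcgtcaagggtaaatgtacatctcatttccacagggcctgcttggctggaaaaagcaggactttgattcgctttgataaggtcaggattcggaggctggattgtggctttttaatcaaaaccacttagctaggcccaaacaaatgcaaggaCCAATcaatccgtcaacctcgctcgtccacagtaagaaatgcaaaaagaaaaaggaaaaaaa
Hoxd3: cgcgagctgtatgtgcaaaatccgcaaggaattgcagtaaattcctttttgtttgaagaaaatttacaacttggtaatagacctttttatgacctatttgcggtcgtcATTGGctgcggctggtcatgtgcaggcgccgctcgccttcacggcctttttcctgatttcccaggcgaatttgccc
Hoxd4: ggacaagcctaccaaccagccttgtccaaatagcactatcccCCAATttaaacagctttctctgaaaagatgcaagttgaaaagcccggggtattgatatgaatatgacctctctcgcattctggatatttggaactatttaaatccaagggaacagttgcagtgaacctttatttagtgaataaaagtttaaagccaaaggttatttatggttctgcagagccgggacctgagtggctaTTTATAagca

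CCAAT was found in the windows of Hoxd10, Hoxd8, Hoxd3 and Hoxd4 and not in that of Hoxd9, and 33.8% of the 32851 RefSeq windows of this length hold it. TATAAA was found only in the Hoxd4 window, 10 bases before its RefSeq start, and is held by 12.4% of all windows. GGGCGG was found only in the Hoxd9 window, against 32.7% of all windows, and CANNTG in all 5, against 66.2%. The letters TGACAG, a Meis motif, and TGATNNAT, a Pbx-Hox motif, were in none of the 5, against 15.9% and 7.70% of all windows. All motifs were searched on both strands, and none of these letter strings contains another. CG pairs numbered 20 in the Hoxd10 window, 13 in Hoxd9, 6 in Hoxd8, 12 in Hoxd3 and 3 in Hoxd4, where the median of all windows was 6. Of the 39 Hox genes 22 had a RefSeq promoter entry, and Hoxc10 and Hoxc6 were not among them.

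The Hox genes that were not expressed above the filter lay mostly at the ends of the clusters. Hoxb1, a hindbrain gene, Hoxb13 and Hoxc12, Hoxd1, and the digit genes Hoxd12 and Hoxd13 had 0 counts in all 6 libraries, where 3 counts corresponded to 0.0682 to 0.0846 CPM. Hoxc13 had 1 count in each of 2 Ctrl-labelled libraries and 0 in the other 4. Hoxd11, the next gene beyond Hoxd10, had 3, 2 and 7 counts in the Ctrl-labelled libraries and 0, 4 and 2 in the cKO-labelled ones. The 30 genes that passed the filter had at least 10 counts in every library. They comprised 10 of 11 Hoxa genes, 8 of 10 Hoxb genes, 7 of 9 Hoxc genes and 5 of 9 Hoxd genes, and 25 of them had a mean of at least 1 CPM. In the Hoxd cluster the 5 genes were Hoxd3, Hoxd4, Hoxd8, Hoxd9 and Hoxd10, which adjoin each other.

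Levels of different genes were compared as CPM per kilobase of exon, averaged over the 6 libraries. Hoxc10, a gene of the hindlimb and lumbosacral region, was highest at 49.8 (range over libraries 36.4 to 60.3). Hoxd8, a trunk gene, followed at 22.7 (13.2 to 31.0) and Hoxd9 at 12.7 (7.02 to 18.2). Their ranges over both labelled groups overlapped, but Hoxd8 was above Hoxd9 within each of the 6 libraries. Hoxa10, the Hoxa paralog of Hoxc10, was next at 5.94 (5.06 to 6.79), below every library's value for Hoxd9. The remaining 26 genes ran from Hoxc9 at 4.64 to Hoxb8 at 0.249. Of the 29 pairs of neighbours in this order, 26 had overlapping ranges, and the exceptions were Hoxc10 above Hoxd8, Hoxd9 above Hoxa10, and Hoxd4 at 1.68 above Hoxa13 at 0.964. Within libraries, 6 of the 29 pairs kept their order in all 6, these 3 pairs and those from Hoxd8 to Hoxd9, Hoxa10 to Hoxc9 and Hoxc9 to Hoxc11. Ranking by the longest transcript left 13 of the 30 genes in place and moved the others by at most 7 places, with Hoxc10, Hoxd8, Hoxd9, Hoxa10 and Hoxc9 unchanged at the top.

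**Figure D1:**
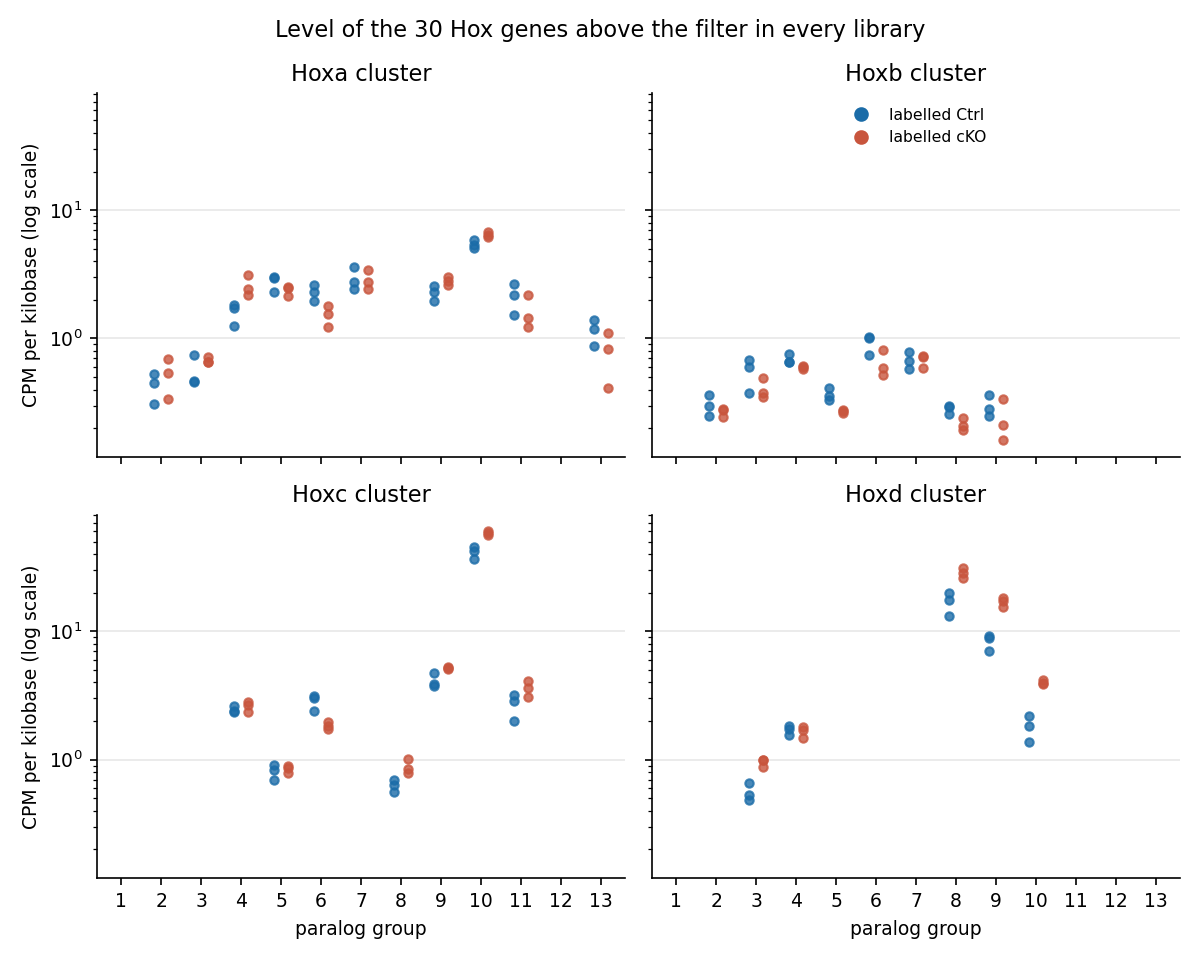
Level of the 30 Hox genes above the filter (CPM per kilobase of exon, log scale) by paralog group in each cluster, with 1 point per library, blue for labelled Ctrl and red for labelled cKO. Hoxc10 at 36.4 to 60.3 and Hoxd8 and Hoxd9 stand above all other genes, and every Hoxb point lies close to or below 1.

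The limb-type genes matched a hindlimb in part. Tbx4, which marks the hindlimb bud, had 189, 190 and 179 counts in the Ctrl-labelled libraries and 128, 151 and 251 in the cKO-labelled ones (4.77 ± 0.16 and 4.41 ± 1.13 CPM, SD, n = 3). Tbx5, its forelimb counterpart, had 1 to 6 counts in any library and did not pass the filter. Pitx1, the regulator that sets hindlimb identity, was low, at 0.652 ± 0.105 CPM in the Ctrl-labelled libraries and 0.479 ± 0.303 CPM in the cKO-labelled ones. Neither Tbx4 (log2 fold change -0.11, SE 0.19) nor Pitx1 (-0.42, SE 0.50) passed the threshold between the labelled groups.

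Across the 30 Hox genes tested, 5 were higher in the cKO-labelled libraries at an edgeR adjusted p under 0.05 (16.7%, against 12.6% of all 14180 genes tested) and 1 was higher in the Ctrl-labelled ones (3.33%, against 11.8%). With a fold change over 2 as well, 2 Hox genes were higher in the cKO-labelled libraries (6.67%, against 2.13%) and 0 in the Ctrl-labelled ones (against 3.92%). The 2 were Hoxd10 and Hoxd9. All CPM values of one group lay above all of the other for 10 Hox genes toward the cKO-labelled libraries (33.3%, against 22.0% of all genes) and for 5 toward the Ctrl-labelled ones (16.7%, against 21.9%). At an unadjusted p under 0.05, 10 Hox genes were toward the cKO-labelled libraries (33.3%, against 19.2% of all genes) and 2 toward the Ctrl-labelled ones (6.67%, against 19.6%). The median log2 fold change of the 30 genes was 0.03 and that of all genes tested was -0.02. By cluster the medians were 0.78 for Hoxd, 0.33 for Hoxc, 0.11 for Hoxa and -0.37 for Hoxb. In whole muscle, fewer cells of a type and less RNA per cell cannot be told apart.

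**Figure D2:**
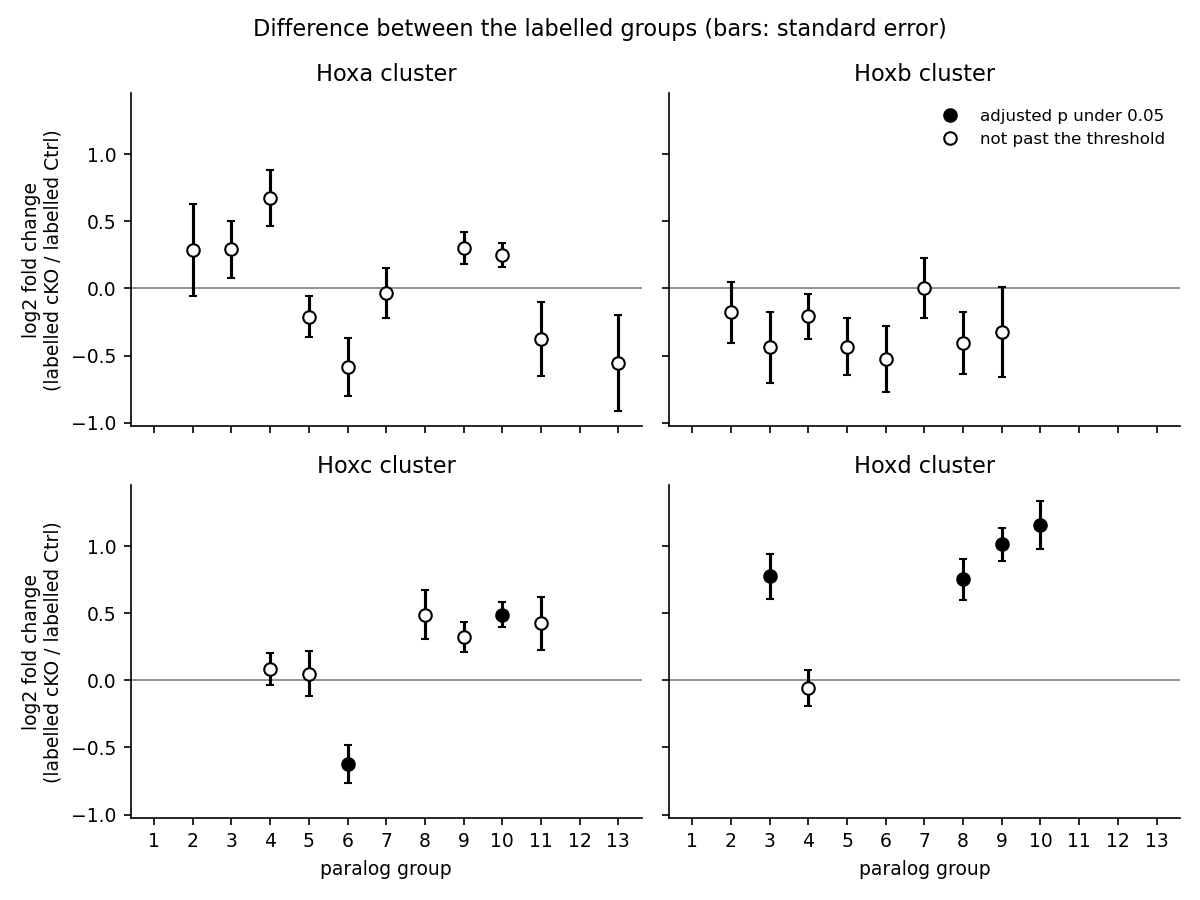
Log2 fold change (cKO-labelled libraries over the Ctrl-labelled ones) of the 30 Hox genes tested, by paralog group in each cluster, with bars of 1 SE from edgeR. Filled points passed an adjusted p of 0.05: Hoxd3, Hoxd8, Hoxd9, Hoxd10 and Hoxc10 above 0 and Hoxc6 below 0, with Hoxd4 at -0.06.

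Hoxd10, a gene of the lumbar cord and limb, had 97, 138 and 146 counts in the Ctrl-labelled libraries and 250, 292 and 319 in the cKO-labelled ones. The lowest cKO-labelled library held more counts than any labelled Ctrl, also after normalization. CPM was 3.27 ± 0.76 and 7.30 ± 0.27 (SD, n = 3), a log2 fold change of 1.16 (SE 0.18, edgeR adjusted p = 0.00670). Hoxd9, its neighbour, had 587, 790 and 719 counts in the Ctrl-labelled libraries and 1380, 1411 and 1453 in the cKO-labelled ones. The groups were again apart. CPM was 17.9 ± 2.54 and 36.2 ± 2.99, a log2 fold change of 1.02 (SE 0.12, edgeR adjusted p = 0.00342). Both genes passed the adjusted p in all 13 alternatives, with log2 fold changes of 0.91 to 1.33 for Hoxd10 and 0.76 to 1.09 for Hoxd9. The fold limit was nearer: without the first Ctrl-labelled library neither gene exceeded 2-fold, and without the first or the second labelled cKO 1 of them did.

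Hoxd8 had 1423, 2262 and 1758 counts in the Ctrl-labelled libraries and 3010, 3015 and 3139 in the cKO-labelled ones. The first Ctrl-labelled library was the lowest of the 6, and the groups did not overlap. CPM was 46.3 ± 9.25 and 78.2 ± 6.81 (SD, n = 3), a log2 fold change of 0.75 (SE 0.15, edgeR adjusted p = 0.0140). Without the first cKO-labelled library the adjusted p was 0.0512, and the other 12 alternatives kept the call.

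Hoxd3, a gene of the upper neck vertebrae, had 79, 114 and 82 counts in the Ctrl-labelled libraries and 148, 160 and 163 in the cKO-labelled ones. Every cKO-labelled library was above every one labelled Ctrl. CPM was 2.34 ± 0.38 and 4.01 ± 0.27 (SD, n = 3), a log2 fold change of 0.78 (SE 0.17, edgeR adjusted p = 0.0180). The call was lost without any of 3 libraries: the adjusted p was 0.0649 without the first labelled Ctrl, 0.0605 without the first labelled cKO and 0.0502 without the third labelled cKO, and 0.0594 when scaled by total counts.

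Hoxd4, also a gene of the neck vertebrae, had 181, 225 and 187 counts in the Ctrl-labelled libraries and 187, 166 and 219 in the cKO-labelled ones. The groups overlapped throughout. CPM was 5.06 ± 0.41 and 4.85 ± 0.49 (SD, n = 3), a log2 fold change of -0.06 (SE 0.14, edgeR adjusted p = 0.779), which was 0.0041 without the second cKO-labelled library. The annotation places 62.8% of the exonic bases of Hoxd3 and 52.3% of those of Hoxd4 under another gene, each other among them, with Gm28230 on the same strand and Hoxd3os1 on the opposite strand. How reads there were assigned is not given in the sources used here, so the counts of these 2 genes are uncertain. Hoxd8 and Hoxd9 share no exonic base with another gene, and Hoxd10 shares 5.70%, with Gm28309.

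**Figure D3:**
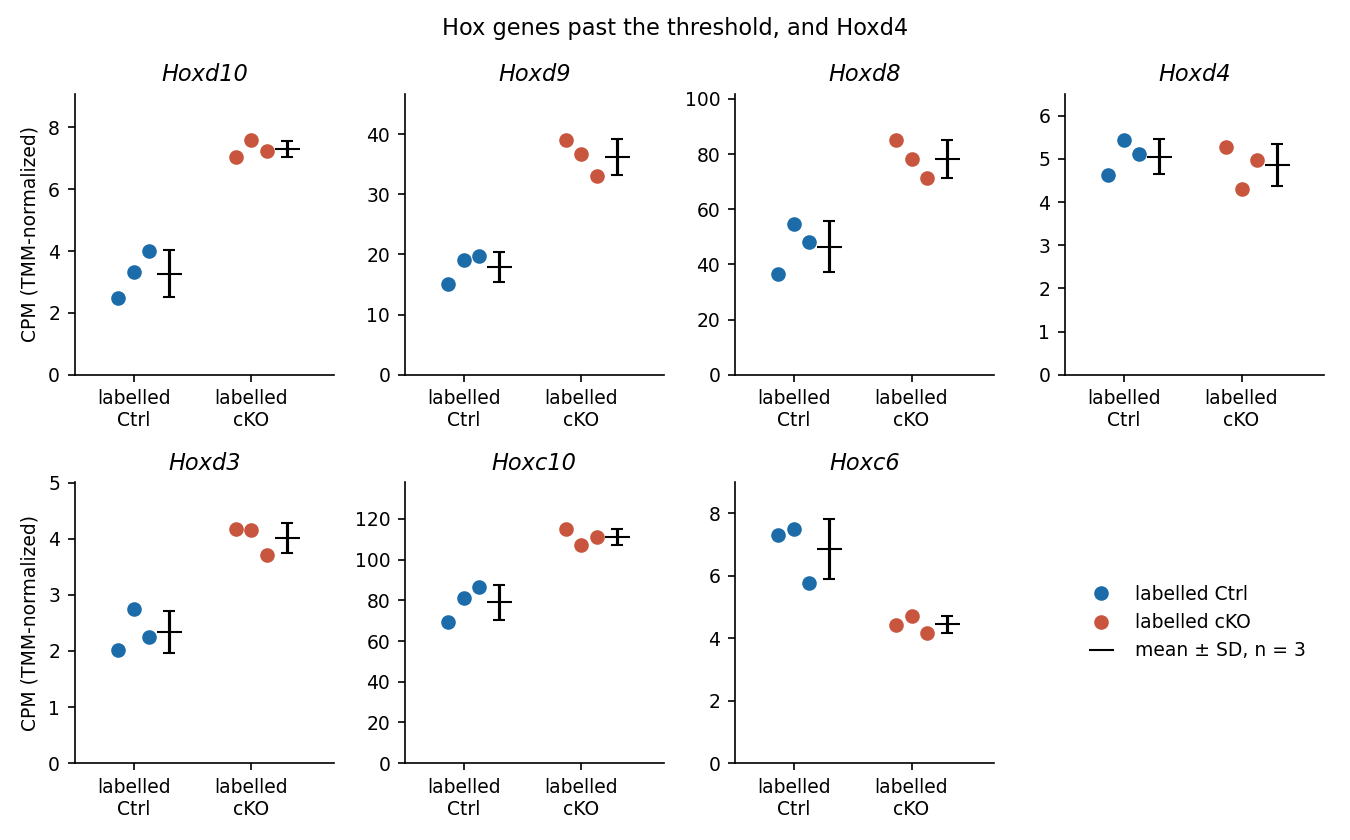
CPM in every library for the 6 Hox genes that passed an adjusted p of 0.05 and for Hoxd4, blue for labelled Ctrl and red for labelled cKO, with the mean and SD (n = 3) beside the points. The groups do not overlap for any gene but Hoxd4, whose means are 5.06 and 4.85 CPM.

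The Hoxd genes were also compared with the genes around them. On chromosome 2 the cluster spans 74668310 to 74765142 of GRCm38, with Hoxd13 at its low end and Hoxd1 at its high end. Of the 5 nearest protein-coding genes on either side, 9 passed the filter and 0 passed the threshold by edgeR or by DESeq2 (0 at an unadjusted p under 0.05 in edgeR), with log2 fold changes of -0.31 to 0.20. Over all genes tested, 12.6% were called toward the cKO-labelled libraries and 11.8% toward the Ctrl-labelled ones, and a count of 0 among 9 genes is read against those shares. Inside the 4 clusters, 7 genes that are not Hox genes passed the filter and 1 passed the threshold, the antisense gene Hoxd3os1. Its counts were 7, 2 and 1 in the Ctrl-labelled libraries and 14, 16 and 14 in the cKO-labelled ones (edgeR adjusted p = 0.0359). It passed the filter only through the cKO-labelled libraries, lies over exons of Hoxd3 and Hoxd4, and was not called with at least 10 counts required in every library or in 5 of the 6 fits without 1 library. Its reads cannot be told apart from theirs without strand.

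**Figure D4:**
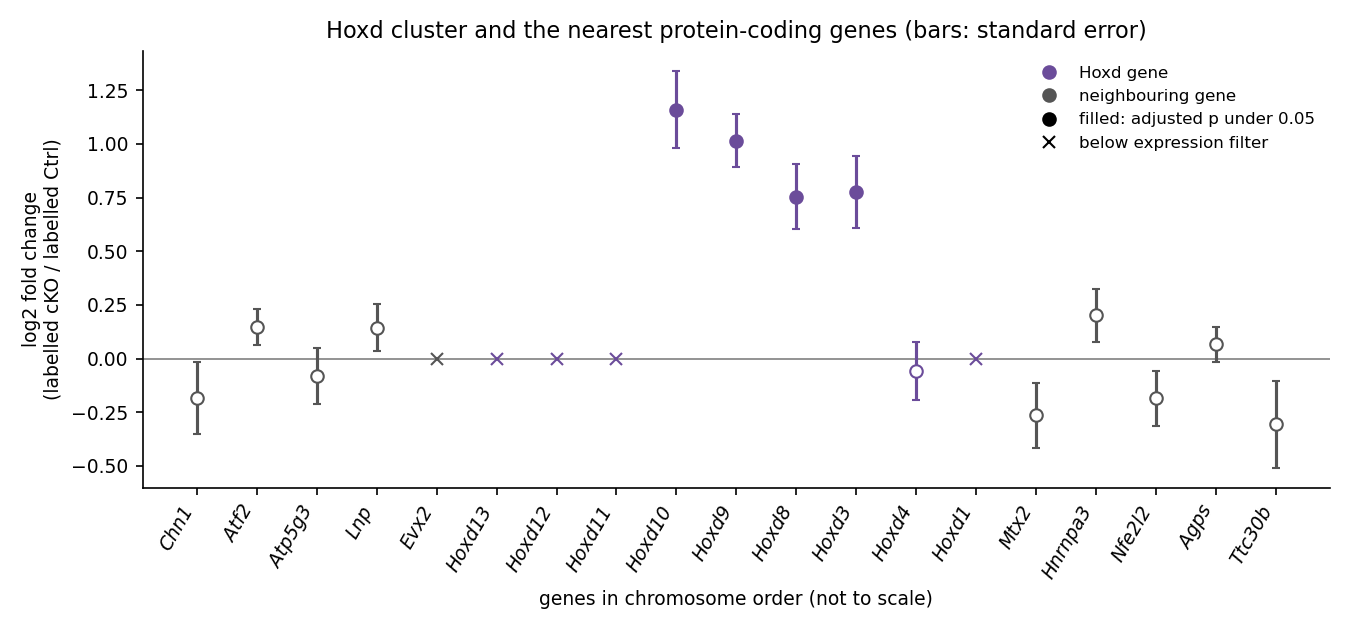
Log2 fold change (cKO-labelled libraries over the Ctrl-labelled ones, bars of 1 SE) of the Hoxd genes and the 5 nearest protein-coding genes on either side, in chromosome order and not to scale. Crosses drawn at 0 are genes below the filter, which have no value. Hoxd10, Hoxd9, Hoxd8 and Hoxd3 lie between 0.75 and 1.16, and the 9 flanking genes tested between -0.31 and 0.20.

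In the Hoxc cluster, Hoxc10 had 2723, 3361 and 3164 counts in the Ctrl-labelled libraries and 4079, 4119 and 4896 in the cKO-labelled ones. It had the highest count of all Hox genes in each of the 6 libraries, and its groups did not overlap. CPM was 79.1 ± 8.68 and 111 ± 4.08 (SD, n = 3), a log2 fold change of 0.49 (SE 0.10, edgeR adjusted p = 0.0131). Scaled by total counts, the adjusted p was 0.0792, and the other 12 alternatives kept the call. It shares 8.70% of its exonic bases with a transcript of Hoxc5, which had 79 to 116 counts.

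Hoxc6, a gene of the forelimb and upper trunk level, moved the other way, with 286, 311 and 211 counts in the Ctrl-labelled libraries and 157, 182 and 184 in the cKO-labelled ones. No cKO-labelled library reached the lowest labelled Ctrl. CPM was 6.86 ± 0.95 and 4.45 ± 0.27 (SD, n = 3), a log2 fold change of -0.63 (SE 0.14, edgeR adjusted p = 0.0206). The adjusted p was 0.0764 and 0.0724 without the first or the second Ctrl-labelled library, and 0.0644 and 0.0761 without the first or the third labelled cKO. Hoxc6 shares no exonic base with another gene. Its counts were 2.67 to 2.83 times those of its neighbour Hoxc5 in the Ctrl-labelled libraries and 1.62 to 1.78 times in the cKO-labelled ones.

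The other 5 Hoxc genes tested did not pass the threshold. Hoxc9, which sets thoracic identity in motor neurons, had 368, 476 and 334 counts in the Ctrl-labelled libraries and 447, 490 and 542 in the cKO-labelled ones. In CPM its groups did not overlap, at 10.01 ± 1.29 and 12.6 ± 0.21 (SD, n = 3, log2 fold change 0.33, edgeR adjusted p = 0.0728). It was called without the second Ctrl-labelled library (adjusted p = 0.0443). Hoxc11, a lumbosacral gene, had 159, 267 and 212 counts against 295, 284 and 274, and its CPM values overlapped (log2 fold change 0.43, edgeR adjusted p = 0.157). Hoxc8 was at 0.49 (adjusted p = 0.0920), and Hoxc4 and Hoxc5 at 0.09 and 0.05, both of which overlapped between the groups and were negative when scaled by total counts (-0.17 and -0.20). From Hoxc8 to Hoxc11 the log2 fold changes of 4 adjoining genes were thus 0.33 to 0.49, next to -0.63 for Hoxc6.

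In the Hoxa cluster 0 of 10 genes tested passed, with 3 at an unadjusted p under 0.05 toward the cKO-labelled libraries (Hoxa4, Hoxa9 and Hoxa10) and 1 toward the Ctrl-labelled ones (Hoxa6). Over all genes tested, 12.6% and 11.8% passed toward the cKO-labelled and the Ctrl-labelled libraries, and 19.2% and 19.6% were at an unadjusted p under 0.05, so that counts of 0, 3 and 1 among 10 genes say little about the cluster. Hoxa10, a gene of the lumbar vertebrae and hindlimb, had 682, 798 and 605 counts in the Ctrl-labelled libraries and 739, 855 and 893 in the cKO-labelled ones. In CPM it was at 17.7 ± 1.38 and 21.1 ± 0.98 (SD, n = 3), without overlap (log2 fold change 0.25, edgeR adjusted p = 0.0821). Hoxa4 had the largest value of the cluster, at 0.68 (edgeR adjusted p = 0.0547), and passed by DESeq2 (adjusted p = 0.0236). Hoxa6 was at -0.59 (edgeR adjusted p = 0.0882) and passed when scaled by total counts (adjusted p = 0.0375).

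Hoxa7, a thoracic gene, had 312, 426 and 254 counts against 347, 305 and 306 (log2 fold change -0.03, edgeR adjusted p = 0.913). Hoxa5, which acts in the neck, thorax and lung, had 219, 233 and 157 counts against 143, 179 and 207 (log2 fold change -0.21, edgeR adjusted p = 0.344). Both overlapped between the groups in CPM. The last genes of the cluster varied between mice: Hoxa11, a gene of the lower leg and forearm, had 109 to 237 counts and Hoxa13, a gene of the foot and hand, had 39 to 135. For both, the second cKO-labelled library was the lowest of the 6. Hoxa13 was the only gene of paralog group 13 above the filter, while its paralogs Hoxb13 and Hoxd13 had 0 counts and Hoxc13 at most 1.

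Hoxb genes were the least abundant. The highest per kilobase of exon was Hoxb6, at 0.783 CPM per kilobase, with 78, 83 and 53 counts in the Ctrl-labelled libraries and 36, 62 and 51 in the cKO-labelled ones (log2 fold change -0.52, edgeR adjusted p = 0.164). By the longest transcript Hoxb7 was above Hoxb6, at 0.8125, and their ranges overlapped with either length. Hoxb7 had 35, 50 and 38 counts against 40, 43 and 40, a log2 fold change of 0.003 that turned negative in 6 of the 13 alternatives. Hoxb4, known for its effect on blood stem cells, had 66, 80 and 62 counts against 55, 57 and 69 and did not overlap in CPM, at 1.77 ± 0.14 and 1.53 ± 0.05 (SD, n = 3, log2 fold change -0.21, edgeR adjusted p = 0.403). Of the 8 Hoxb genes tested 7 had negative log2 fold changes, from -0.18 to -0.52, and 0 passed the threshold by edgeR, by DESeq2 or at an unadjusted p under 0.05. Toward the Ctrl-labelled libraries, 11.8% of all genes passed and 19.6% were at an unadjusted p under 0.05 (12.6% and 19.2% the other way), and a count of 0 among 8 is read against those shares. The signs of these 7 held in all 13 alternatives. These genes had 16 to 119 counts per library, and the SE of their log2 fold changes was 0.17 to 0.34.

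The share of Hox transcripts that came from each cluster moved accordingly. All Hox genes together summed to 232, 280 and 262 CPM in the Ctrl-labelled libraries and to 368, 347 and 341.5 CPM in the cKO-labelled ones. The Hoxd cluster held 26.1, 30.4 and 30.2% of them in the Ctrl-labelled libraries and 38.2, 37.8 and 35.2% in the cKO-labelled ones, without overlap. The Hoxa share was 21.3 to 25.9% against 18.2 to 19.7%, and the Hoxb share 3.57 to 4.55% against 2.34 to 2.43%, also without overlap. Shares sum to the whole, so a lower share is not a lower level: Hoxa genes summed to 55.9 to 65.9 CPM in the Ctrl-labelled libraries and 63.3 to 67.2 CPM in the cKO-labelled ones, which overlapped, and Hoxb genes to 9.35 to 11.8 and 7.999 to 8.89 CPM, which did not. The Hoxc share, 41.9 to 44.9% against 41.2 to 42.8%, overlapped. Such shares need no scaling between libraries. The same holds for ratios within a library: Hoxd9 counts were 0.216 to 0.235 times those of Hoxc10 in the Ctrl-labelled libraries and 0.297 to 0.343 times in the cKO-labelled ones, and 1.33 to 1.52 times against 1.96 to 2.53 times those of its paralog Hoxa9. Hoxd8 over Hoxc10 overlapped between the groups, at 0.523 to 0.673 in the Ctrl-labelled libraries and 0.641 to 0.738 in the cKO-labelled ones. Hoxd10 over Hoxd9 overlapped too, at 0.165 to 0.203 against 0.181 to 0.2195. Hoxc6 over Hoxc10 did not, at 0.0667 to 0.105 against 0.0376 to 0.0442. Hoxd3 over Hoxd4, which share exonic bases, was also apart, at 0.4365 to 0.5067 against 0.7443 to 0.9639.

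**Figure D5:**
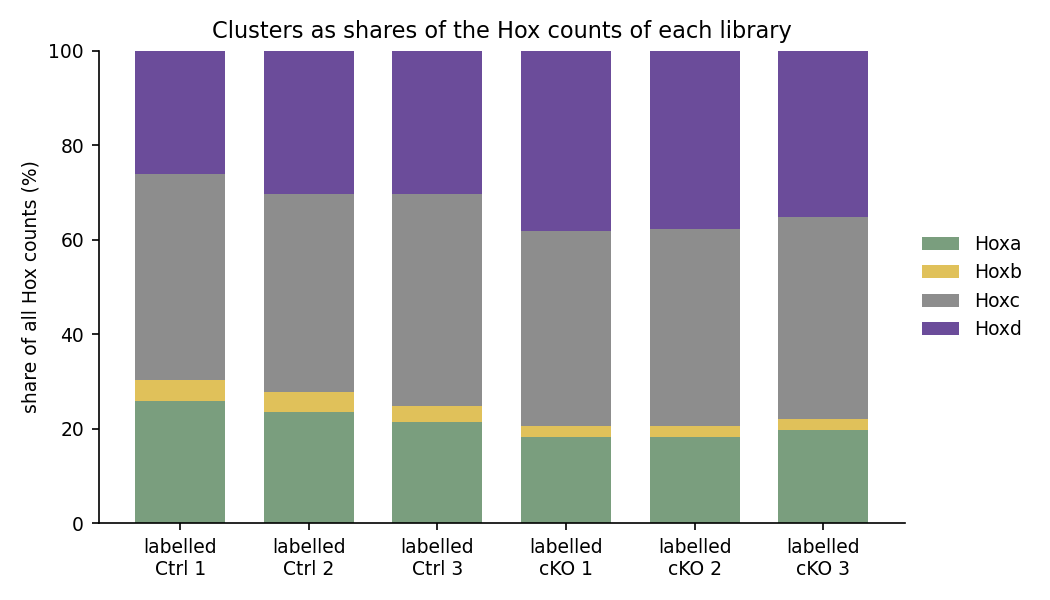
Share of all Hox counts (percent) held by each cluster in each of the 6 libraries. The Hoxd share is 26.1 to 30.4% in the Ctrl-labelled libraries and 35.2 to 38.2% in the cKO-labelled ones, and the Hoxc share is 41.2 to 44.9% throughout.

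Grouped by paralog, the genes of groups 10 and 6 pointed one way across clusters, and the other groups with 3 or more genes tested did not. In group 10, which shapes the lumbar and hindlimb region, Hoxa10, Hoxc10 and Hoxd10 were at 0.25, 0.49 and 1.16 on the log2 scale. None overlapped between groups, where 22.0% of all genes tested lay apart in this direction. Hoxa10 fell to -0.0008 when scaled by total counts, where the median of all genes was -0.27. In group 6, Hoxa6, Hoxb6 and Hoxc6 were at -0.59, -0.52 and -0.63, and all 3 stayed negative in the 13 alternatives. Hoxb6 overlapped between the groups. Group 8 ran from -0.41 (Hoxb8) to 0.75 (Hoxd8), group 9 from -0.32 (Hoxb9) to 1.02 (Hoxd9), and group 4 from -0.21 (Hoxb4) to 0.68 (Hoxa4). Group 3 ran from -0.44 (Hoxb3) to 0.78 (Hoxd3), and group 5 from -0.44 (Hoxb5) to 0.05 (Hoxc5). Hoxc5 turned negative when scaled by total counts or without the third Ctrl-labelled library. These ranges are descriptions, and the difference between paralogs was not tested.

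Of the genes that act with or on Hox genes, the cofactors held no called gene. All but Pbx4 of the 9 Pbx, Meis and Pknox genes were tested, and 0 of 8 passed by edgeR or by DESeq2, with 2 at an unadjusted p under 0.05 in edgeR and log2 fold changes of -0.50 to 0.39. With 12.6% and 11.8% of all genes called in the 2 directions, a count of 0 among 8 says little about the list. Scaled by total counts, 2 were higher in the Ctrl-labelled libraries. Their summed level was 134 to 140 CPM in the Ctrl-labelled libraries and 120 to 141 CPM in the cKO-labelled ones.

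Among Polycomb genes, 5 of 31 tested were higher in the cKO-labelled libraries and 4 in the Ctrl-labelled ones, shares near the 12.6% and 11.8% of all genes called in these directions. Yaf2, a subunit of repressive complex 1, was at 20.3 ± 1.81 and 33.3 ± 1.28 CPM (SD, n = 3, log2 fold change 0.71, edgeR adjusted p = 0.00365), and Bmi1, a core subunit of that complex, at 56.3 ± 3.25 and 73.3 ± 2.13 CPM (0.38, adjusted p = 0.0121). Cbx2, a reader of the Polycomb mark, was lower in the cKO-labelled libraries, at 2.62 ± 0.32 and 1.16 ± 0.20 CPM (-1.17, adjusted p = 0.00909), as was Phc2, a subunit that clusters the complex, at 37.6 ± 3.17 and 27.5 ± 2.28 CPM (-0.45, adjusted p = 0.0166). The list's median log2 fold change was 0.01. Of 18 Trithorax and H3K27 demethylase genes, 3 were higher in the cKO-labelled libraries, the methyltransferase Ash1l (0.28), the acetyltransferase Kat8 (0.51) and the demethylase Kdm6b (0.48), and 0 in the Ctrl-labelled ones (also 0 by DESeq2 and at an unadjusted p under 0.05), with a median of 0.11. The 3 of 18 likewise lie near the 12.6% of all genes, and neither list stands out by its count. Over both lists the 8 higher and 4 lower became 1 and 13 when scaled by total counts. Without the first Ctrl-labelled library they were 2 and 1, without the second 3 and 2, and without the first or the third labelled cKO 2 and 1.

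Of the limb identity and patterning genes, 1 of 13 tested passed, Tbx15, which acts in glycolytic fibers, at 230 ± 13.98 and 346 ± 65.2 CPM (SD, n = 3, log2 fold change 0.59, edgeR adjusted p = 0.0270), where 12.6% of all genes were called in this direction. The list's median log2 fold change was -0.28, and 3 of its genes, Tbx3 (-0.64), Prrx2 (-0.98) and Osr2 (-0.65), were at an unadjusted p under 0.05 toward the Ctrl-labelled libraries without passing the threshold. The ParaHox and Evx genes, relatives of the Hox genes, were not detected or barely so: 6 of 8 had 0 counts in all libraries and the others 2 counts or fewer. Among the nearest protein-coding genes beside all 4 clusters, 33 were tested, 0 were higher in the cKO-labelled libraries (0 by DESeq2, 0 at an unadjusted p under 0.05) and 3 in the Ctrl-labelled ones, all of them near the Hoxb cluster: Ube2z (-0.43, edgeR adjusted p = 0.00660), Copz2 (-0.46, 0.0204) and Nfe2l1 (-0.34, 0.0422). Over all genes tested, the shares called in these directions were 12.6% and 11.8%. With the genes inside the clusters counted too, the 3 became 1 without the first library of either labelled group or the third labelled cKO.

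Cell type markers differed between the labelled groups beside these results, where 12.6% of all genes tested were called toward the cKO-labelled libraries and 11.8% toward the Ctrl-labelled ones. All 10 fast-fiber markers were higher in the cKO-labelled libraries, with a summed level of 150500 to 194900 CPM against 55940 to 95040 CPM in the Ctrl-labelled ones. Slow-fiber markers were higher in the Ctrl-labelled libraries for 6 of 10, at 8910 to 14650 CPM against 552 to 3768 CPM. Fibro-adipogenic progenitor markers, which mark connective tissue cells, were higher in the Ctrl-labelled libraries for 5 of 12 and in the cKO-labelled ones for 0, with sums of 2203 to 2427 and 1825 to 2046 CPM. Immune markers were higher in the Ctrl-labelled libraries for 9 of 12, at 191 to 219 against 87.1 to 122 CPM, and Schwann cell markers for 2 of 8, at 160 to 232 against 92.0 to 148 CPM.

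Tenocyte markers were higher in the cKO-labelled libraries for 1 of 7 (336 to 363 against 167 to 728 CPM), and mural cell markers for 1 of 8 with 2 of 8 the other way (765 to 815 against 753 to 820 CPM). For so few genes these counts are near the shares over all genes. Satellite cell markers (0 of 7, 81.9 to 122 against 55.1 to 79.7 CPM), endothelial markers (0 of 8, 472 to 507 against 449 to 459 CPM) and adipocyte markers (0 of 8, 198 to 253 against 202 to 253 CPM) did not pass by edgeR, with 1 satellite cell marker, 0 endothelial and 0 adipocyte markers at an unadjusted p under 0.05 and the same numbers passing by DESeq2. No marker was at 0 in a group. The markers called on the fast-fiber list differed in the same direction as Hoxd10, Hoxd9, Hoxd8, Hoxd3 and Hoxc10, and those called on the slow, progenitor, immune and Schwann cell lists in the same direction as Hoxc6. Members of the progenitor list that were not called lay on both sides, such as Dcn at 0.20 and Smoc2 at 0.29. The part of fiber type or cell make-up in the Hox results was not tested.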

How the data were processed

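Bulk RNA-Seq libraries of GP muscle from 3 mice labelled Ctrl and 3 labelled cKO were analysed. Per the methods, the authors checked reads with FastQC 0.11.8, used Trimmomatic 0.39 for trimming, HISAT2 2.1.0 for alignment to mm10, and featureCounts 1.6.2 for counts per gene. They deposited the resulting counts without normalization, listed by gene symbol. The annotation and the strand setting of the counting are not given in the sources used here.

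Counts were fitted over all genes in R 4.3.3 with edgeR 4.0.16 (TMM, filterByExpr, glmQLFit, glmQLFTest). Of 24421 genes, 14180 (58.1%) were tested, and p-values were adjusted by Benjamini-Hochberg over all of them. Steps were tested on simulated data. CPM used TMM factors (1.08 to 1.11 for Ctrl-labelled libraries, 0.865 to 0.983 for the cKO-labelled ones). The floor of 3 counts covers counting error only, whereas SDs and SEs include variation between mice. Each SE is the absolute log2 fold change divided by the square root of the edgeR F statistic. Positions, exon lengths and overlaps came from GENCODE M21 on GRCm38, in which 98.3% of symbols were found, 641 of them by a RefSeq synonym. Replicates differed beyond counting error (chi-square per degree of freedom 29.5 to 101).

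Named with values are each Hox gene at an adjusted p under 0.05, the 3 of each cluster with the highest level per kilobase, Pitx1, Tbx4 and Tbx5, and at most 4 genes of each other list that passed; other Hox genes, Tbx3, Prrx2, Osr2, Dcn and Smoc2 were named after their values were seen, and 1 Hox gene is not reported here. The members and lists were chosen with earlier results of these data known. The alternatives were the Wald test of DESeq2 1.42.0, its size factors or total counts in place of TMM, a filter of 10 counts in every library or none, a robust fit, a replicate block by mouse number, and leaving out each library, 13 fits in all, and, for levels, the longest transcript in place of all exons and a mean of at least 1 CPM as the filter.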

Additional observations from a re-analysis of the deposited data

How the results depend on the processing

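Of 13 alternatives, Hoxd9 and Hoxd10 passed in 13, Hoxd8 and Hoxc10 in 12, and Hoxd3 and Hoxc6 in 9. Scaled by total counts, Hox genes higher in the cKO-labelled libraries went from 5 to 3, those also over 2-fold from 2 to 0, and those higher in the Ctrl-labelled libraries from 1 to 2; cofactors higher in the Ctrl-labelled ones went from 0 to 2, Polycomb and Trithorax genes from 8 to 1 and from 4 to 13, and genes between and beside the Hox genes higher in the Ctrl-labelled ones from 3 to 6. That scaling moves the median of all genes to -0.27, against which Hoxa10 (-0.0008), Hoxb7 (-0.25), Hoxc4 (-0.17) and Hoxc5 (-0.20), which turned negative, lie higher.

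Leaving out 1 library gave 3 to 6 Hox genes higher in the cKO-labelled libraries, 0 to 1 higher in the Ctrl-labelled ones and 0 to 2 over 2-fold. It gave 2 to 7 and 1 to 3 Polycomb and Trithorax genes, and 0 to 1 and 1 to 3 genes between and beside the Hox genes, higher in the cKO-labelled and the Ctrl-labelled libraries in that order. Signs turned for Hoxa7 (-0.19 to 0.14, positive without Ctrl-labelled library 2 or cKO-labelled library 3), Hoxb7 (-0.098 to 0.12, negative without Ctrl 1, Ctrl 3, cKO 1 or cKO 2), Hoxc5 (-0.0451 to 0.14, negative without Ctrl 3) and Hoxd4 (-0.13 to 0.0041, positive without cKO 2). With at least 10 counts in every library, genes between and beside the Hox genes higher in the cKO-labelled ones went from 1 to 0, and Hoxb7 to -0.0049. None of the genes whose sign turned passed the threshold in any fit.

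Mice of both labelled groups share numbers, but same-numbered mice did not deviate together (correlations 0.09, -0.24 and -0.01), so the numbers do not pair them. With the mouse number as a replicate block, the same 6 Hox genes passed. The block changed Polycomb and Trithorax genes to 3 higher in the cKO-labelled libraries and 2 in the Ctrl-labelled ones, and genes between and beside the Hox genes to 0 and 1. The cause of these changes was not tested. Hoxd11, with at most 7 counts in any library, was too shallow to be tested.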
